A study of Mus musculus with 105 samples.

Results

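The primitive streak and mesendoderm genes T, Eomes, Mixl1, Gsc, Mesp1, Fgf8, Fgf17 and Nkx1-2 were followed by symbol through the bulk and single-cell count tables of differentiating female mouse embryonic stem cells (mESCs). All 8 were among the 52016 genes of the bulk tables and the 34120 genes of the single-cell table. They were chosen by name, not by a threshold on a measured value. The parental line TX1072 is an F1 hybrid of C57BL6/J (B6) and Cast/EiJ (Cast), kept as clone A3. Its B6 copy of Xist has an inserted promoter that responds to doxycycline, and Rosa26 holds rtTA. Both deletion lines were made from it. TXdXicB6 (clone A1) lacks chrX:103182701-103955531 (mm10), the region around Xist, on the B6 X chromosome, and with it the copy of Xist that carries the inserted promoter. TXdXicCast (clone A6) lacks chrX:103182257-103955698 on the Cast X chromosome. Each deletion line is a single clone, so line and clone cannot be told apart.

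Cells were held in serum with LIF and 2i, the GSK3 inhibitor CT-99021 with the MEK inhibitor PD0325901. They were then moved at day 0 to DMEM with 10% FBS on fibronectin, without LIF and 2i. Bulk RNA was sequenced at days 0, 1, 2, 3 and 4 in 3 replicates per line, giving 15 TX1072 and 30 deletion line libraries. A TX1072 library held from 19827011 to 39628784 counts (median 30147369), and a deletion line library from 16906263 to 57920260 (median 30597945). Levels are normalised read counts, scaled to a library's effective size (CPM). The line TX1072 and the deletion lines were prepared with different kits and run on different sequencers, so levels were compared within each table only. The RNA of TXdXicCast at day 0 was degraded and its fragmentation was adjusted, so the TXdXicCast values at day 0 differ in preparation from all others. In single cells, 3′ ends were counted with unique molecular identifiers (UMIs) from 1 TX1072 culture a day, and the 277, 325, 341, 257 and 272 cells of days 0 to 4 that the study retained were used. Bulk replicate 1 of TX1072 came from the same cell population as the single cells. The mESC markers Pou5f1, Sox2, Nanog, Esrrb and Zfp42 were detected in every group. Nanog was at 1196 ± 191 CPM (SD, n = 3) in TX1072 at day 0 and 244 ± 25.3 at day 4.

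The primitive streak is the site in the gastrulating embryo at which epiblast cells leave the epithelium and become mesoderm or definitive endoderm. Wnt signals acting through beta-catenin and TCF/LEF factors, together with Nodal signals acting through SMAD factors, switch on the T-box genes T and Eomes there. FGF ligands made in the streak act on cells through FGF receptors and ERK, and they are needed for cells to move away from it. T (brachyury) and Eomes encode T-box transcription factors, Gsc and Mixl1 paired-type homeobox factors, Nkx1-2 an NK-type homeobox factor known from the caudal epiblast, and Mesp1 a basic helix-loop-helix factor of nascent mesoderm. Fgf8 and Fgf17 are secreted ligands of the same FGF subfamily.

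On the GRCm38 build with the GENCODE M21 annotation, all 8 genes are protein coding and autosomal. T is at chr17:8434423-8442496 on the plus strand (ENSMUSG00000062327) and Eomes at chr9:118478212-118486132 on the plus strand (ENSMUSG00000032446). On the minus strand are Mixl1 at chr1:180693043-180697034 (ENSMUSG00000026497), Gsc at chr12:104471209-104473330 (ENSMUSG00000021095), Mesp1 at chr7:79792241-79793788 (ENSMUSG00000030544), Fgf8 at chr19:45736798-45742915 (ENSMUSG00000025219), Fgf17 at chr14:70636203-70642268 (ENSMUSG00000022101) and Nkx1-2 at chr7:132594878-132599637 (ENSMUSG00000048528). Eomes shares exonic bases with the antisense gene Gm33460 and Nkx1-2 with the antisense gene Gm16764. The strand setting of the counting is not given in the sources used here, so reads of such a pair may not be told apart. Over the 3 TX1072 libraries of a day, Gm33460 had between 6 counts at day 0 and 76 at day 4, and Gm16764 had at most 3.

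Promoters are shown for T, Nkx1-2 and Gsc, which fell together at day 1, and for Eomes, which rose on that day. They are the bases just before the annotated start, in GRCm38 from RefSeq, read 5′ to 3′ on the gene's strand. RefSeq entries matched T, Eomes, Gsc, Mesp1 and Nkx1-2. The T window is chr17:8434173-8434422 (plus strand), the Nkx1-2 window chr7:132599638-132599887 (minus strand), the Gsc window chr12:104473331-104473486 (minus strand, without 94 bases that lie inside the annotated gene) and the Eomes window chr9:118477939-118478188 (plus strand). Capitals mark matches to a TCF/LEF core (CTTTGA, or TCAAAG on the other strand) or to a T-box core (AGGTGT, or ACACCT on the other strand), and no match overlaps another.
T: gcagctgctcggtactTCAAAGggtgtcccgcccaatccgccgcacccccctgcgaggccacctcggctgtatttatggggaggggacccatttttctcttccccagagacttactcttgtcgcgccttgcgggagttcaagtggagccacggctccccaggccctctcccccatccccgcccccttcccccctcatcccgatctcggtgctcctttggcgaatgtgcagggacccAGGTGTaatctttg
Nkx1-2: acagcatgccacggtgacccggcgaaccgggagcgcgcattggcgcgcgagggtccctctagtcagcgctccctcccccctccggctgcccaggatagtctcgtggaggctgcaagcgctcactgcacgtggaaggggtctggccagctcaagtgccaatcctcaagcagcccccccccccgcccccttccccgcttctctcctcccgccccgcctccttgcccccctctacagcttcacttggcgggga
Gsc: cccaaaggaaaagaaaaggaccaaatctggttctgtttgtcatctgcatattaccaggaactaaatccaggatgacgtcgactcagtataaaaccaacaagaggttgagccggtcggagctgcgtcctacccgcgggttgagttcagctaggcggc
Eomes: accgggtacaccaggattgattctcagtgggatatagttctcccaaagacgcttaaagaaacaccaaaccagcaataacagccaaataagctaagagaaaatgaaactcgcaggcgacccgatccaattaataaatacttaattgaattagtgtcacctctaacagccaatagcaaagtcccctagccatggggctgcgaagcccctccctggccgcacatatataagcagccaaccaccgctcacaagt
The T window held TCAAAG from 234 to 229 bases and AGGTGT from 14 to 9 bases before the start. Neither core was found in the windows of Nkx1-2, Gsc and Eomes. Of the 250 bases before the RefSeq start of Mesp1, not printed, the last 198 lie inside the annotated gene. They held the TCF/LEF core from 72 to 67 and from 31 to 26 bases before the start, and the 52 bases outside the gene held the T-box core from 233 to 228 bases before it. Of 32851 windows of 250 bases before a start, 13.8% held the TCF/LEF core and 11.8% the T-box core, so such matches are common.

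The genes did not share 1 onset. T, Gsc and Nkx1-2 were already expressed at day 0, in 2i and LIF, and had nearly vanished at day 1. Eomes and Fgf17 had a first peak at day 1. T, Eomes, Mixl1, Gsc and Fgf8 then rose towards day 4, while Nkx1-2 stayed low. In TX1072, 7 of the 8 genes passed the filter on low counts and were tested with edgeR's quasi-likelihood test (Benjamini-Hochberg adjusted p under 0.05 over all 18871 genes tested). Mesp1 did not pass. In the same test, 5 of the 7 differed between day 1 and day 0 (2 higher, 3 lower), against 47.0% of all genes tested. At days 2 and 3, 6 of 7 differed from day 0, against 56.1% of all genes at day 2 and also at day 3, and at day 4 again 6 of 7, against 59.8%. These counts are above the share of all genes, but calls were so frequent among all genes that direction, size and day carry the description.

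**Figure D1:**
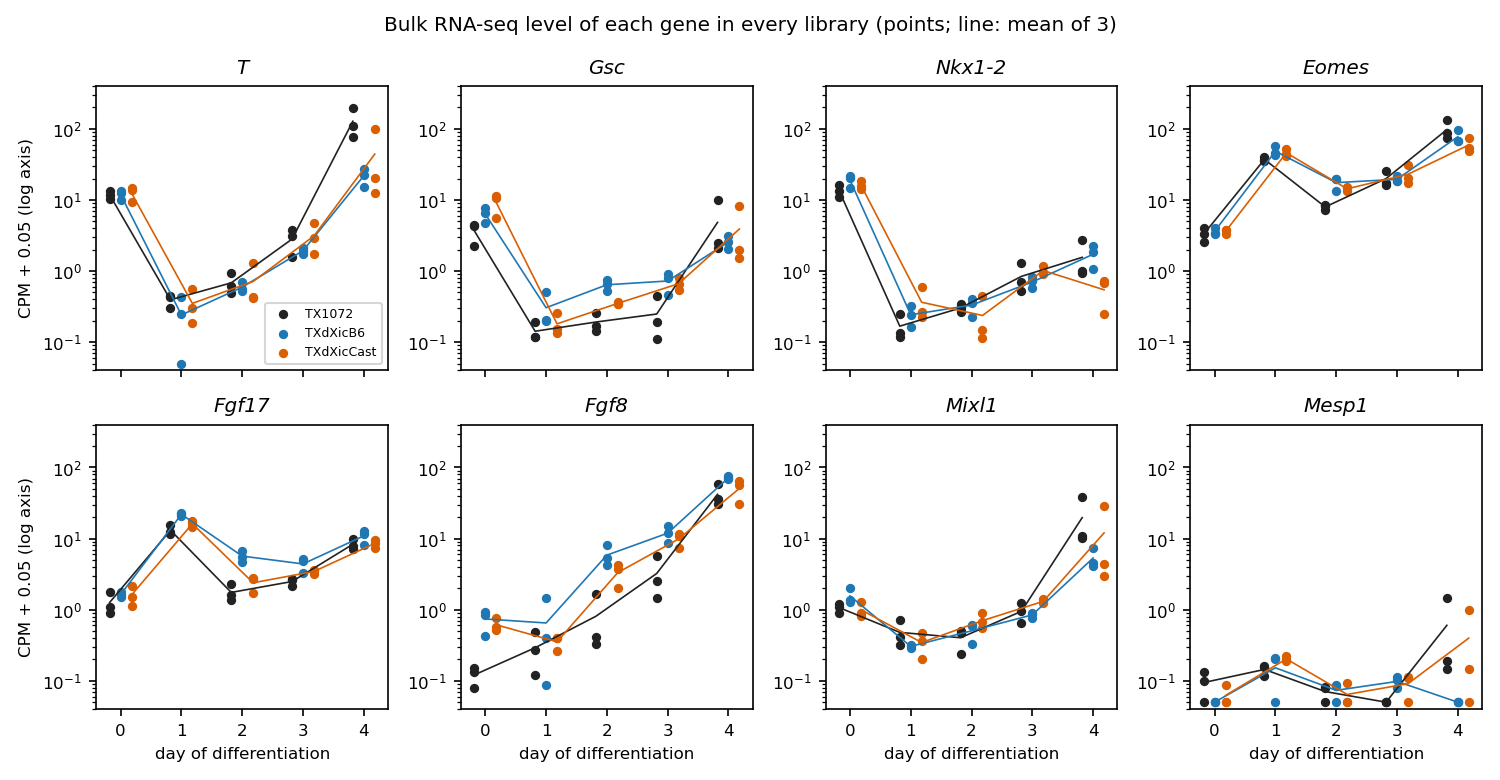
Normalised read count (CPM, log axis) of each gene by day in the 3 lines, with a point for each of the 3 libraries and a line through the means. T, Gsc and Nkx1-2 start high and drop at day 1, Eomes and Fgf17 have a first peak at day 1, and T reaches between 77.2 and 198 CPM in TX1072 at day 4.

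At day 0, T was at 10.3, 13.1 and 11.8 CPM in TX1072 replicates 1, 2 and 3, and at day 1 at 0.397, 0.253 and 0.381 CPM. Nkx1-2 went from 13.3, 16.3 and 11.1 CPM at day 0 to 0.199, 0.0845 and 0.0693 CPM at day 1. Gsc went from 2.23, 4.38 and 4.28 CPM to 0.0662, 0.141 and 0.0693 CPM. For all 3 genes every day 0 library was far above every day 1 library. By edgeR's quasi-likelihood test T fell by 5.09 ± 0.41 on the log2 scale (SE; 34.1-fold lower, adjusted p = 1.2e-08). Nkx1-2 was 112-fold lower (adjusted p = 2.3e-09) and Gsc 36.3-fold lower (adjusted p = 8.7e-06) at day 1. Mixl1 had 1.05, 1.17 and 0.847 CPM at day 0 and 0.265, 0.366 and 0.658 CPM at day 1, a difference that did not pass the test (log2 fold change −1.27 ± 0.58, adjusted p = 0.0831). Per kilobase of exon, the mean level at day 0 was highest for T (5.08 ± 0.612 CPM per kb, SD, n = 3), followed by Nkx1-2 (4.16 ± 0.807) and Gsc (2.86 ± 0.958). Neighbours in that order lay within about their summed spread, though each library held that order, and Eomes (0.781 ± 0.167) and the rest were below all 3.

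Day 1 was the day of Eomes and Fgf17. Eomes rose from 2.53, 3.92 and 3.29 CPM at day 0 to 36.5, 39.5 and 35.3 CPM at day 1 and was back at 8.50, 7.16 and 8.08 CPM at day 2. Fgf17 followed the same course, from 0.844, 1.75 and 1.05 CPM over 12.2, 15.3 and 11.7 CPM to 2.26, 1.54 and 1.30 CPM. In both genes the day 1 libraries lay above all libraries of days 0 and 2. The rise was 11.5-fold for Eomes (log2 fold change 3.53 ± 0.23, adjusted p = 9.2e-10) and 10.9-fold for Fgf17 (3.44 ± 0.26, adjusted p = 4.9e-09). From day 1 to day 2, Eomes was 4.70-fold lower (adjusted p = 1.6e-07) and Fgf17 7.77-fold lower (adjusted p = 3.5e-08). They were the only 2 of the 7 tested genes called in that step, in which 39.6% of all genes were called. With the replicate number as a block, Fgf8 was called as well from day 1 to day 2 (log2 fold change 1.51, adjusted p = 0.01) and from day 0 to day 1 (1.94, adjusted p = 0.0388). Without the block it was called in neither step (1.52 with adjusted p = 0.133, and 1.83 with adjusted p = 0.261), and the 3 day 0 libraries held 5 Fgf8 reads in all.

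The second wave started between days 2 and 3 for T and Eomes and was steepest between days 3 and 4. By edgeR's test Fgf8 was already higher at day 2 than at day 0, 10.2-fold in TX1072 (adjusted p = 0.0122). It was 8.25-fold higher in TXdXicB6 (adjusted p = 2.4e-06) and 6.2-fold higher in TXdXicCast (adjusted p = 2.9e-05). In TX1072 its log2 fold change of 3.35 was 1.81 without replicate 1 (adjusted p = 0.0391). T went from 0.880, 0.441 and 0.573 CPM at day 2 to 3.73, 1.50 and 3.06 CPM at day 3 and to 198, 108 and 77.2 CPM at day 4. Replicate 1 was the highest library at day 4, and no library of a day overlapped with those of the next. T rose 4.61-fold from day 2 to day 3 (log2 fold change 2.21 ± 0.42, adjusted p = 0.0007) and 44.8-fold from day 3 to day 4 (5.49 ± 0.33, adjusted p = 9.5e-09). From day 2 to day 3, T, Eomes, Fgf8 and Nkx1-2 rose (4 of 7), where 26.7% of all genes were called and 13.8% were called higher. From day 3 to day 4, 6 of 7 rose, all but Nkx1-2, where 27.7% of all genes were called and 15.5% were called higher. The call of Fgf8 from day 2 to day 3 was lost without replicate 2 (adjusted p = 0.0732), and that of Nkx1-2 without replicate 3 (adjusted p = 0.105).

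Fgf8 levels climbed over the days, from 0.0301, 0.0834 and 0.0996 CPM at day 0 over 1.63, 0.284 and 0.362 CPM at day 2 and 5.67, 2.46 and 1.42 CPM at day 3 to 59.2, 35.5 and 30.9 CPM at day 4. Its lowest day 3 library lay below its highest day 2 library, and otherwise the groups from day 2 on did not overlap. The ratio of summed reads, scaled to depth, between day 4 and day 0 was 649, with a counting interval from 278 to 2001 because day 0 held so few reads. By edgeR's test the log2 fold change was 9.23, and 8.46 without replicate 1 (adjusted p = 1.4e-09). Eomes rose again, to 25.8, 17.5 and 16.4 CPM at day 3 and 132, 86.0 and 73.7 CPM at day 4, 30.2-fold above day 0 (adjusted p = 5.8e-12). Fgf17 reached 7.13, 9.81 and 7.86 CPM at day 4, below each of its day 1 libraries.

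The homeobox genes differed in their course. Mixl1 was at or below 1.18 CPM in every library until day 3 and then at 38.2, 10.1 and 10.7 CPM at day 4 (21.1-fold above day 3, log2 fold change 4.4 ± 0.48, adjusted p = 3.9e-06). Gsc returned from 0.396, 0.0601 and 0.139 CPM at day 3 to 9.85, 2.03 and 2.44 CPM at day 4 (22.1-fold, adjusted p = 6.9e-05). The Gsc level at day 4 overlapped with that at day 0 and did not differ from it by the test (log2 fold change 0.40 ± 0.46, adjusted p = 0.478). Nkx1-2 was at 2.69, 0.943 and 0.888 CPM at day 4, 9.08-fold below day 0 (log2 fold change −3.18, adjusted p = 3.4e-07). Without day 4 replicate 1, the day 4 to day 3 values were smaller for Mixl1 (3.48, adjusted p = 9.03e-07) and Gsc (3.38 against 4.47, adjusted p = 7.52e-05), and Nkx1-2 lay further below day 0 (−3.87, adjusted p = 1.33e-08). Mesp1 had at most 4 reads in any TX1072 library except day 4 replicate 1, which held 38.

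Replicate 1 stood above the other day 4 libraries of TX1072 for T, Eomes, Mixl1, Gsc, Mesp1, Fgf8 and Nkx1-2. The summed level of the 6 definitive endoderm markers was also higher in that library, at 42.2 CPM in replicate 1 against 12.6 and 11.4 CPM in replicates 2 and 3, none of the 6 was at 0, and the most abundant, Foxa2, was at 31.6, 5.97 and 5.36 CPM. The part of these cells in the result was not tested. Without that library T was still higher at day 4 than at day 0 (log2 fold change 3.00, adjusted p = 4.85e-09), and so was Mixl1 (3.34, adjusted p = 4.02e-08), while the Gsc value changed sign (−0.67, adjusted p = 0.131). Without replicate 1 at all days, Gsc was lower at day 4 than at day 0 (−0.94, adjusted p = 0.0191). In bulk RNA, fewer cells of a type and less RNA per cell cannot be told apart.

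Single cells were used to ask which share of cells held the transcripts. Each day is 1 culture and cells are not replicates, so shares are given with exact 95% Clopper-Pearson intervals for counting error only and without a test. The cells came from the population of bulk replicate 1, whose day 4 library stood above the others (T at 198 CPM against 108 and 77.2 CPM). The day 4 values in single cells are those of this culture and may not hold for the other replicates. The median retained cell had 138565, 124651, 125591, 130377 and 171158 UMIs at days 0 to 4. T was detected in 40 of 277 day 0 cells (14.4%, interval 10.5% to 19.1%). It was found in 0 of 325 day 1 cells (interval 0% to 1.13%), and the bulk libraries of that day still held T reads. The share was 0.587% on day 2, 6.61% on day 3 and 56.6% on day 4 (154 of 272, interval 50.5% to 62.6%). Positive cells also held more T at day 4, with 40.4 UMIs per positive cell against 8.90 at day 0. After each cell was thinned to 40000 UMIs, which every retained cell reached, the T shares were 11.2% at day 0, 4.67% at day 3 and 41.2% at day 4. These days kept their order at equal depth. No cells known to lack T were at hand, so the share that free RNA can give was not measured.

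**Figure D2:**
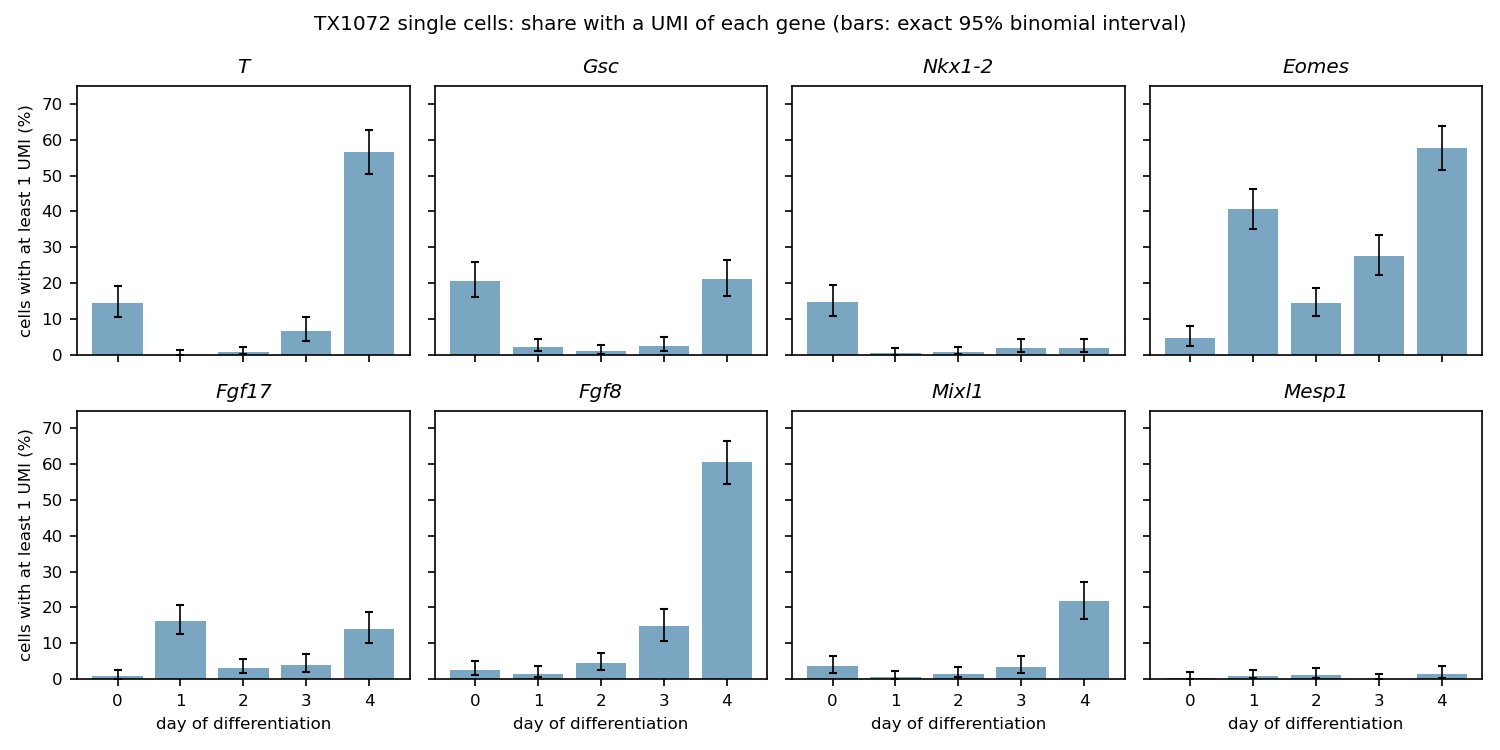
Share of retained TX1072 cells with at least 1 UMI of each gene (percent) by day, with exact 95% intervals for counting error. T, Eomes and Fgf8 end between 56.6% and 60.7% of cells at day 4, Gsc has about the same share at day 0 and day 4, and Mesp1 stays at or below 1.47%.

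The other genes fell into the same classes as in bulk RNA. Gsc transcripts were present in 20.6% of the day 0 cells, 2.15% of the day 1 cells and 21% of the day 4 cells, and Nkx1-2 transcripts in 14.8%, 0.308% and 1.84%. At a like share, Gsc-positive cells held 4.42 Gsc UMIs each at day 0 and 14.3 at day 4. Eomes was in 40.6% of cells at day 1 (35.2% to 46.2%), in 14.4% at day 2, in 27.6% at day 3 and in 57.7% at day 4. Fgf17 was in 16.3% at day 1 and 14% at day 4, and in at most 3.89% on the other days. Fgf8 rose from 4.4% at day 2 over 14.8% at day 3 to 60.7% at day 4, and Mixl1 from 3.50% at day 3 to 21.7%. Mesp1 was found in 4 of 272 cells at day 4, and 1 cell held 89 of the 105 UMIs. Mixl1 was similarly uneven, with 54.2% of its day 4 UMIs in 5 cells, against 22.5% for T and 13.7% for Fgf8. The thinned shares at day 4 were 44.9% for Eomes, 50.7% for Fgf8, 16.9% for Mixl1, 15.4% for Gsc and 4.41% for Fgf17. For Fgf17 the thinned share at day 1 was higher, at 8.31%. Between the 10 capture columns of the day 4 chip, the share of T-positive cells ranged from 21.7% to 74.2%, and T was found in all 10.

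Cells that held any of the 8 genes made up 46.9%, 52.9%, 24.0%, 43.2% and 87.1% of the retained cells at days 0 to 4. At day 0 most of them held a single gene (34.3% of all cells), and 12.6% of cells held 2 or more (8.96% to 17.1%). At day 4, 66.9% held 2 or more (61.0% to 72.5%), or 49.3% after thinning. Such a share also grows when each gene is detected in more cells, and the share under independence was not computed. At day 0 Gsc was detected in 25% of the 40 T-positive cells and 19.8% of the T-negative cells, and Nkx1-2 in 25% and 13.1%. With 10 cells in each of these overlaps, the intervals (12.7% to 41.2% for both) include the shares in T-negative cells.

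At day 4, Eomes, Fgf8, Gsc and Mixl1 were each detected in a larger share of T-positive than of T-negative cells. Eomes was detected in 66.9% of T-positive cells (103 of 154, 58.9% to 74.2%) and 45.8% of T-negative cells, Fgf8 in 70.8% and 47.5%, Gsc in 30.5% and 8.47%, and Mixl1 in 27.3% and 14.4%. T-positive and T-negative cells were of like depth, with medians of 173618 and 169176 UMIs, and after thinning the shares were 58.9% and 35.0% for Eomes and 29.5% and 5.62% for Gsc. Gsc-positive cells mostly held other members. Of 57 such cells, 82.5% held T, 87.7% Eomes and 50.9% Mixl1, against 49.8%, 49.8% and 14% of Gsc-negative cells. Fgf17 was detected in 6.78% of the 59 Mixl1-positive cells, and the interval (1.88% to 16.5%) includes the 16.0% of the Mixl1-negative cells.

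**Figure D3:**
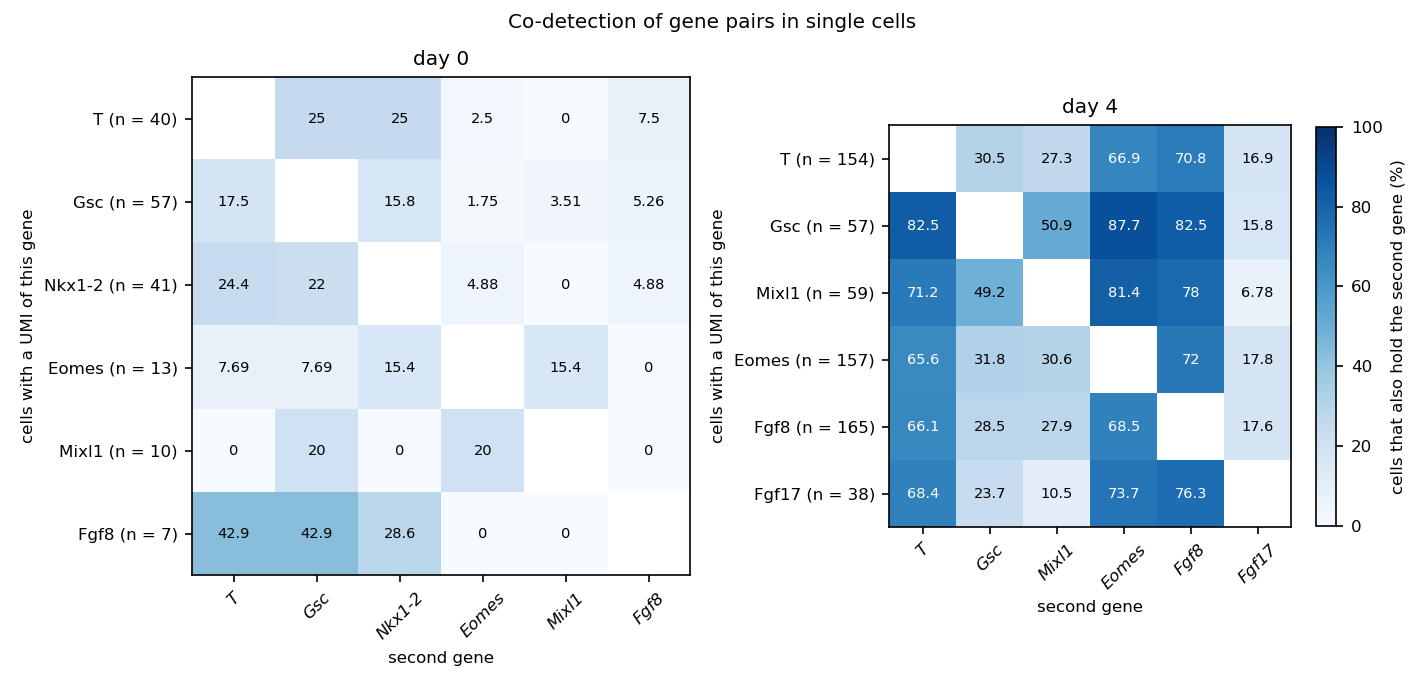
Share of cells (percent) that hold the gene of the column among cells positive for the gene of the row, at day 0 and day 4. At day 4 T, Eomes and Fgf8 are found in most Gsc-positive cells, with 82.5%, 87.7% and 82.5%, and at day 0 in 17.5%, 1.75% and 5.26%. Among T-positive cells, Gsc is found in 25% at day 0 and 30.5% at day 4.

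Genes were ranked at day 4 by the ratio of their CPM in the 154 cells with and the 118 cells without a T UMI. Such a ranking puts genes at 0 in T-negative cells first, even if few cells hold them. The first was Evx1, a homeobox gene of the posterior streak, with 368 UMIs in T-positive cells and 0 in T-negative cells (at least 92.7-fold, against a floor of 3 counts). The next 9 (1700028I16Rik, Gm42486, Lrrc75aos2, Awat2, Tmem8b, Gm37154, Gm38148, 1700063H04Rik and Unc13c) were also at 0 in T-negative cells, but each was found in between 0.649% and 6.49% of T-positive cells, against 14.3% for Evx1. At day 3, with 17 T-positive cells, the first 10 were Fam90a1b, Gm43005, 2810414N06Rik, D830036C21Rik, Gm43951, Colgalt2, 4732440D04Rik, Creb3l3, Atp6v1g2 and Rit2, found in between 5.88% and 17.6% of those cells, that is in 1 to 3 cells each.

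Of the further streak and nascent mesoderm genes 15 had at least 60 UMIs at day 4, and 13 of them had a higher level in T-positive than in T-negative cells. The same held for 10 of 14 Nodal pathway genes, 9 of 13 FGF genes, 5 of 7 epiblast genes, 3 of 3 definitive endoderm genes and 1 of 1 heart gene. It held for 5 of 12 Wnt genes, 4 of 10 pluripotency genes, 2 of 5 germ cell genes and 2 of 4 neural genes. Of the node genes 1 of 3 was higher, and of the trophoblast genes 0 of 3. Among all 13386 genes with that many UMIs the share was 50.5%. Fst, which encodes the activin antagonist follistatin, was at 147 CPM in T-positive and 24.8 CPM in T-negative cells. Cer1, which encodes a secreted Nodal antagonist, was at 25 and 0.972 CPM, the LIM homeobox gene Lhx1 at 28.2 and 2.10 CPM, and the retinoic acid-degrading enzyme gene Cyp26a1 at 26.6 and 2.25 CPM. The endoderm genes Foxa2 (120 and 29.5 CPM), Gata6 (8.11 and 0.307 CPM) and Sox17 (2.47 and 0.102 CPM) were also higher, with 64 and 2 UMIs for Sox17. The naive pluripotency genes Esrrb (23.9 and 46.0 CPM) and Zfp42 (20.6 and 40.9 CPM) were lower in T-positive cells, and so were Fgf4 (39.7 and 93.2 CPM) and the trophoblast marker Krt7 (42.9 and 94.5 CPM). Nanog was at 90.7 and 90.3 CPM. These are sums over cells of 1 culture, that of bulk replicate 1, and carry no replicate error.

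**Figure D4:**
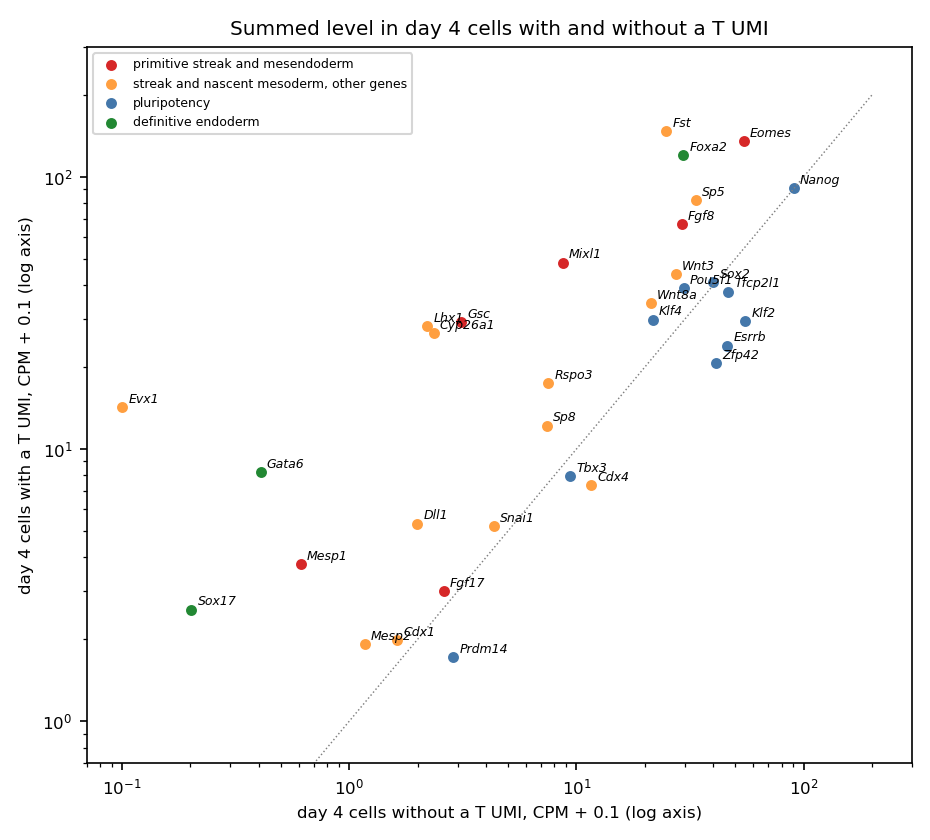
Level of genes of 4 lists with at least 60 UMIs in day 4 cells with a T UMI against day 4 cells without one (CPM, both axes log), with the line of equal levels. Fst, Lhx1, Cyp26a1 and Foxa2 lie above the line, Esrrb, Zfp42 and Klf2 below it, and Nanog on it.

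The deletion lines showed the same succession. In TXdXicB6, T was at 9.92, 12.5 and 13.2 CPM at day 0, 0.197, 0 and 0.376 CPM at day 1 and 15.3, 27.6 and 22.5 CPM at day 4. In TXdXicCast it was at 13.6, 9.19 and 14.5 CPM, 0.138, 0.252 and 0.511 CPM and 20.4, 12.5 and 99.1 CPM. Every day 1 library lay below those of days 0 and 4 in its line, and replicate 3 of TXdXicCast lay far above the other deletion line libraries at day 4. Between days 0 and 1 T was 60.6-fold lower in TXdXicB6 (adjusted p = 2.4e-07) and 42.0-fold lower in TXdXicCast (adjusted p = 3.3e-07). The TXdXicB6 value, −5.92 on the log2 scale, was −5.30 without replicate 2 and −6.79 without replicate 3. Eomes and Fgf17 rose at day 1 in both lines, Eomes 13.5-fold and 13.0-fold and Fgf17 13.8-fold and 10.5-fold. In each line 6 of the 7 tested genes were called at day 1, against 45.8% of all 19885 genes tested in TXdXicB6 and 58.9% in TXdXicCast. Among them was a fall of Mixl1 (log2 fold change −2.56, adjusted p = 0.00331 in TXdXicB6, and −1.65, adjusted p = 0.0466 in TXdXicCast). Its TXdXicB6 call was lost without replicate 2 of that line (adjusted p = 0.0518). Its TXdXicCast call was lost without replicate 1, 2 or 3 of TXdXicB6 and without replicate 1 or 2 of TXdXicCast (adjusted p from 0.0624 to 0.167).

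Against day 0, 7 of 7 were called at day 2 in TXdXicB6 (all genes 56.1%) and 6 of 7 in TXdXicCast (66.3%), and at day 3 it was 6 of 7 in both (57.8% and 68.5%). At day 4 the calls were 6 of 7 in TXdXicB6 (59.5%) and 7 of 7 in TXdXicCast (69.7%). The gene not called was T in TXdXicB6 (log2 fold change 0.87 ± 0.47, adjusted p = 0.115), although each of its day 4 libraries lay above each day 0 library. It was called with the replicate number as a block (0.90, adjusted p = 0.0377). Leaving out replicate 3 of TXdXicCast, which is part of the same fit, also gave a call (0.89, adjusted p = 0.00696). So did the fit with no filter on low counts (0.88, adjusted p = 8.21e-06). In TXdXicCast T was called (1.82 ± 0.48, adjusted p = 0.00141), but not without day 4 replicate 3 (0.41, adjusted p = 0.32). Gsc ended below its day 0 level in both lines, 2.52-fold in TXdXicB6 (adjusted p = 0.00618) and 2.37-fold in TXdXicCast (adjusted p = 0.00678). In TXdXicCast the groups overlapped, with 8.15 CPM in day 4 replicate 3 and 5.49 CPM in the lowest day 0 library, and without that day 4 library the Gsc log2 fold change went from −1.24 to −2.40 (adjusted p = 5.43e-07). The Gsc call was lost without replicate 1 of TXdXicB6 (adjusted p = 0.121) and of TXdXicCast (adjusted p = 0.168), respectively.

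From day 1 to day 4, a step that does not use the degraded RNA, 7 of 7 genes were called in TXdXicB6 (all genes 56.7%) and 5 of 7 in TXdXicCast (59.5%). T rose 111-fold and 149-fold, Fgf8 119-fold and 165-fold, Mixl1 20.4-fold and 39.2-fold, and Gsc 9.64-fold and 27.3-fold in TXdXicB6 and TXdXicCast. On the log2 scale the TXdXicCast values were 7.22 for T, 5.29 for Mixl1 and 4.77 for Gsc, and without day 4 replicate 3 they were 5.80, 3.58 and 3.61, below those of TXdXicB6 for T (6.80) and Mixl1. Without replicate 1 of TXdXicCast the Gsc value was 5.72. In TXdXicB6 the value without replicate 2 was 6.01 for T, 8.52 for Fgf8 (6.89 with it) and 3.98 for Gsc (3.27 with it), and without replicate 3 it was 7.71 for T. Fgf17 fell from day 1 to day 4, 2.01-fold in TXdXicB6 (adjusted p = 7e-05) and 1.89-fold in TXdXicCast (adjusted p = 0.00022). Nkx1-2 rose 8.67-fold in TXdXicB6 (adjusted p = 1.9e-06) and was not called in TXdXicCast (log2 fold change 0.76 ± 0.50, adjusted p = 0.201). Eomes was called in TXdXicB6 (1.60-fold, adjusted p = 0.00272), though not without replicate 2 (adjusted p = 0.145), and was not called in TXdXicCast (0.37 ± 0.19, adjusted p = 0.0896). Per kilobase of exon, Fgf8 was the most abundant gene of both lines at day 4, at 53.1 ± 2.47 CPM per kb in TXdXicB6 and 37.6 ± 13.2 in TXdXicCast, followed in TXdXicB6 by Eomes (18.6 ± 4.0) and T (9.41 ± 2.66). In TXdXicCast T (19 ± 20.7) and Eomes (14.2 ± 3.43) did not differ beyond their spread. In TX1072 the day 4 order was T (55.2 ± 27.1), Fgf8 (31.0 ± 11.3) and Eomes (23.4 ± 7.46). The ranges of neighbours overlapped between libraries, but each library held that order.

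Few of the 7 tested genes differed between the deletion lines. No gene was called at day 0 (all genes 19.8%), day 1 (0.402%) or day 3 (1.28%) by edgeR, and none by DESeq2, and Fgf17 at day 1 was the only one at an unadjusted p under 0.05. At day 2, Fgf17 was the 1 gene called (all genes 0.372%). It was at 4.65, 6.71 and 5.51 CPM in TXdXicB6 and 2.70, 2.65 and 1.67 CPM in TXdXicCast, with every TXdXicB6 library above every TXdXicCast library (2.39-fold, log2 fold change 1.26 ± 0.22, adjusted p = 0.00327). Without replicate 2 of TXdXicB6 the call was lost (1.11, adjusted p = 0.113).

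At day 4, Nkx1-2 was the 1 gene called (all genes 5.9%). It was at 1.78, 2.22 and 1.01 CPM in TXdXicB6 and 0.666, 0.620 and 0.196 CPM in TXdXicCast, again without overlap (3.35-fold, log2 fold change 1.75 ± 0.38, adjusted p = 0.00495). These values rest on between 6 and 74 reads a library, and the call was lost without TXdXicCast day 4 replicate 3 (1.38, adjusted p = 0.0676) or without replicate 2 of TXdXicB6 (1.50, adjusted p = 0.0808). The change of Nkx1-2 from day 1 to day 4 did not differ between the lines by edgeR (2.36 ± 0.73, adjusted p = 0.149), where none of the 7 was called (all genes 0.779%) and Nkx1-2 was the only one at an unadjusted p under 0.05, whereas DESeq2 called it (adjusted p = 0.0209).

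T, Mixl1 and Gsc were lower in TXdXicB6 by the mean of day 4, with wide errors. The log2 fold change was −1.02 ± 0.46 for T (adjusted p = 0.224), −1.18 ± 0.46 for Mixl1 (adjusted p = 0.146) and −0.63 ± 0.41 for Gsc (adjusted p = 0.43), and none was called. Mixl1 was at 4.11, 7.21 and 4.54 CPM in TXdXicB6 and 4.32, 2.91 and 28.7 CPM in TXdXicCast, and Gsc at 2.00, 2.51 and 3.03 CPM and 1.92, 1.48 and 8.15 CPM. Replicate 3 of TXdXicCast alone lay above the TXdXicB6 libraries in all 3 genes. Without that library the 3 values changed sign, to 0.40 for T, 0.53 for Mixl1 and 0.53 for Gsc, with adjusted p = 0.807, 0.533 and 0.622. Leaving out others turned the difference into a call. Without TXdXicCast replicate 2, T (−1.49, adjusted p = 0.0436) and Mixl1 (−1.67, adjusted p = 0.0235) were called, without its replicate 1 Mixl1 was (−1.63, adjusted p = 0.0422), and with no filter on low counts both were. The same library held 29 of the 31 Mesp1 reads of TXdXicCast at day 4, and its 6 endoderm markers summed to 26.7 CPM (Foxa2 16.1 CPM) against 10.9 and 9.31 CPM in replicates 1 and 2, with none of the 6 at 0. The part of these cells in the line difference was not tested. Eomes and Fgf8 were 1.31-fold and 1.41-fold higher in TXdXicB6 at day 4 and were not called (log2 fold change 0.38 ± 0.18 with adjusted p = 0.254, and 0.49 ± 0.32 with adjusted p = 0.423).

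Because the cells are B6 × Cast hybrids, reads over polymorphic positions were assigned to the alleles. The B6 share of such reads is given as a description for libraries with at least 20 assigned reads. T was read mostly from the Cast allele at day 0 and in near equal parts from both at day 4. In TX1072 its B6 share was 16.1%, 17.7% and 11.9% in the 3 libraries of day 0 and 51.4%, 53.2% and 46.5% in those of day 4. In TXdXicB6 the mean was 19.6% ± 9.21 (SD, n = 3) at day 0 and 54.5% ± 1.79 at day 4, and in TXdXicCast 16.8% ± 2.67 and 53.4% ± 1.96. Every day 0 library of every line lay below every day 4 library. The median over autosomal genes was close to 51% in every library, and an equally large or larger shift between the pooled days (35.1, 30.3 and 35.0 percentage points in TX1072, TXdXicB6 and TXdXicCast) was seen in 0.81% of 9878, 1.4% of 10390 and 0.907% of 10917 autosomal genes. TXdXicB6 day 0 replicate 1 rested on 22 reads for T, and 5.21% of all its counts were assigned to an allele, the lowest share of any library.

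**Figure D5:**
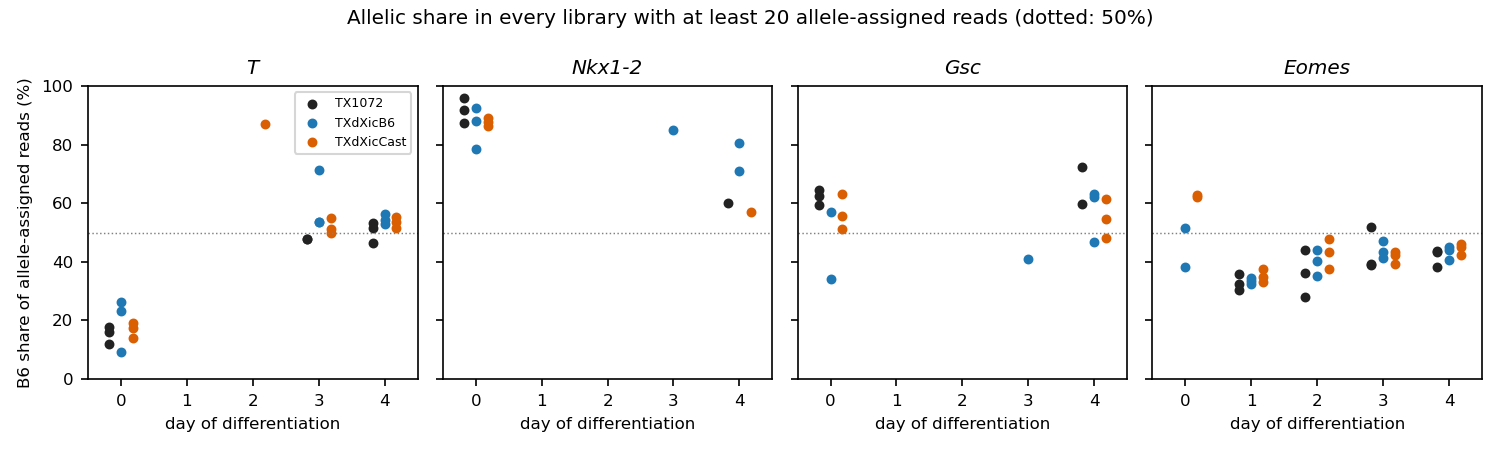
B6 share of allele-assigned reads (percent) for T, Nkx1-2, Gsc and Eomes by line and day, with a point for each library with at least 20 assigned reads and a line at an equal share. T moves from between 9.09% and 26.3% at day 0 to between 46.5% and 56.4% at day 4, and Nkx1-2 lies between 78.5% and 96.0% at day 0.

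Nkx1-2 leaned the other way. Its B6 share at day 0 was 91.7% ± 4.31 in TX1072, 86.3% ± 7.19 in TXdXicB6 and 87.8% ± 1.41 in TXdXicCast (SD, n = 3 each). Eomes was moderately biased to Cast at its day 1 peak, with a B6 share of 32.8% ± 2.85, 33.6% ± 0.965 and 35.1% ± 2.27 in the same order, and less so at day 4, with 41.9% ± 3.07, 43.1% ± 2.23 and 44.5% ± 1.90. Fgf8 at day 4 was at 72.1% ± 1.61 in TX1072 and at 55.8% ± 1.49 and 53.6% ± 7.10 in the deletion lines. The TX1072 and deletion line libraries differ in kit and sequencer, and this difference was not tested. Fgf17 at day 1 was at 55.7% ± 4.02, 53.3% ± 6.88 and 54.2% ± 4.17.

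Spliced and unspliced UMIs were read for 6 of the 8 genes, and Mixl1 and Nkx1-2 were not analysed here. Fgf17 stood apart with 50.3% unspliced UMIs at day 1 (171 unspliced and 169 spliced, interval 44.8% to 55.7%) and 55.9% at day 4 (118 unspliced and 93 spliced, 48.9% to 62.7%). The median over genes with at least 100 UMIs was 11.4% at day 1 and 9.57% at day 4. T had 3.26% at day 0 and 0.671% at day 4, Eomes at most 1.21%, and Fgf8 2.67% at day 4.

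The genes with the course most like that of T, by Pearson's r of log2(CPM + 1) over the 15 TX1072 libraries among 13267 genes, were Dcbld2, Cmtm3, Litaf and Nedd9 (r = 0.98 each) and Pde10a (0.97). Over the 30 deletion line libraries their r was 0.88, 0.87, 0.89, 0.91 and 0.84. Pde10a was at 4.91 ± 0.808 CPM at day 0, 1.45 ± 0.348 at day 1 and 27.7 ± 1.83 at day 4 (SD, n = 3). Of the other members, Mixl1 (0.92 in TX1072 and 0.86 in the deletion lines) and Gsc (0.87 and 0.83) had the highest values over all days. The values were 0.80 and 0.52 for Fgf8, 0.60 and 0.23 for Mesp1, 0.46 and 0.53 for Nkx1-2, 0.41 and −0.05 for Eomes and 0.11 and −0.28 for Fgf17. The order depended on day 4. Over the 12 TX1072 libraries of days 0 to 3, r was 0.96 for Nkx1-2, 0.91 for Gsc and 0.83 for Mixl1, but −0.08 for Fgf8, −0.22 for Mesp1, −0.61 for Fgf17 and −0.70 for Eomes. The libraries share days and replicates, and these values are descriptions.

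The other genes of the streak and of the pathways around it moved in both directions between days 0 and 4 of TX1072. Of 23 further streak and nascent mesoderm genes 20 were tested, and 14 were higher and 3 lower at day 4 (median log2 fold change 2.72, all genes −0.05). Of all genes tested 59.8% were called in this comparison, and the counts of each list below stand against that share. The largest increases were of Cyp26a1, the Wnt ligand gene Wnt8a and the Wnt agonist gene Rspo3. Wnt8a rose from 0.166 ± 0.218 to 69.4 ± 5.70 CPM (SD, n = 3, log2 fold change 8.75 ± 0.37, adjusted p = 8.7e-13). Among the decreases were those of Cdx1 (from 54.2 ± 15.6 to 1.58 ± 0.272 CPM) and Cdx2, caudal genes which like T were expressed at day 0.

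Of 15 FGF ligand, receptor and ERK feedback genes, 9 were higher and 6 lower (median 1.15). Fgf5, a ligand of the epiblast, rose from 0.129 ± 0.0806 to 148 ± 4.99 CPM (log2 fold change 9.99 ± 0.34, adjusted p = 6.8e-14), and the ERK feedback genes Spry4 (7.56 ± 0.38) and Dusp6 (6.13 ± 0.22) rose as well. Fgf3 (−4.76 ± 0.24), Fgf4 (−3.28 ± 0.15) and the ETS factor gene Etv5 (−1.26 ± 0.12) fell. Of 12 Wnt genes 11 were tested, with 6 higher and 1 lower (median 0.40), a share of calls near that of all genes. Rnf43 (3.37 ± 0.30), Dkk1 (2.01 ± 0.49) and Nkd1 (0.92 ± 0.22), which encode antagonists of the pathway, rose, and Notum, which encodes another, fell from 55.1 ± 12.8 to 3.97 ± 0.702 CPM. Of 14 Nodal pathway genes 9 were higher and 3 lower (median 0.63), with Cer1 and Lefty1 (2.30 ± 0.45) among the increases, while Lefty2 (−1.28 ± 0.34), Smad7 (−1.04 ± 0.18) and Acvr1b (−0.39 ± 0.12) fell.

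All 10 pluripotency genes were lower at day 4 (median −3.39), with Klf4 (−5.67 ± 0.23), Prdm14 (−5.27 ± 0.18) and Tfcp2l1 (−4.74 ± 0.16) as the largest decreases, and all 7 epiblast genes were higher (median 1.54), with Sox3 (2.25 ± 0.23) and Pou3f1 (2.08 ± 0.18) after Fgf5. Markers of other cells rose in part. Of 6 definitive endoderm genes 5 were higher and 1 lower (median 1.77), with Foxa2 (6.59 ± 0.75), Gata6 (3.14 ± 0.60) and Cxcr4 (1.86 ± 0.28) up. Of 5 trophoblast genes tested 4 were higher and 1 lower (median 5.02). Krt7 rose from 0.288 ± 0.143 to 65.4 ± 0.366 CPM, Gcm1 was up (5.02 ± 0.26), Hand1 had no reads at day 0 and 1.62 ± 0.372 CPM at day 4, and Cdx2, which is in both lists, was down. Of 5 neural genes tested 4 were higher (Neurod1 5.78 ± 0.51, Pax6 2.30 ± 0.52, Nes 1.68 ± 0.12) and Sox1 was lower (−1.02 ± 0.40). All 3 node genes tested were higher, Foxj1 (3.86 ± 0.33), Nog (3.85 ± 0.49) and Chrd (3.64 ± 0.43). Of the heart genes none was higher and 2 of 4 tested were lower (Myl7 −2.04 ± 0.28, Tnnt2 −1.98 ± 0.28), and of 5 germ cell genes 4 were lower (Dazl −4.82 ± 0.30, Dppa3 −1.40 ± 0.17, Nanos3 −1.27 ± 0.33).

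Between the deletion lines at day 4, 5.9% of all genes were called, and the calls of each list stand against that share. Of 21 streak genes tested, the caudal homeobox gene Cdx4 was higher in TXdXicB6 (2.89 ± 0.40, adjusted p = 7.2e-05) and Lhx1 lower (−3.01 ± 0.73, adjusted p = 0.0121). Cdx4 (chrX:103321398-103330592) lies inside the deleted interval, so TXdXicB6 keeps its Cast copy and TXdXicCast its B6 copy, and line and strain copy cannot be told apart. Lhx1 was at 10.2 CPM in 1 TXdXicCast library, and at 0.363 CPM in the lowest. Of 15 FGF genes 3 were higher in TXdXicB6, Spry4 (1.01 ± 0.26), Etv4 (0.59 ± 0.13) and Spry2 (0.44 ± 0.12), all known as ERK targets. The Wnt effector gene Lef1 (1.35 ± 0.32) and the Nodal co-receptor gene Tdgf1 (0.37 ± 0.09) were higher, as were Pou5f1 (0.44 ± 0.11), Dnmt3b (0.69 ± 0.17) and Otx2 (0.54 ± 0.13). Tbx3 (−1.03 ± 0.29), Tfcp2l1 (−0.55 ± 0.16), Gata6 (−2.37 ± 0.58), Nog (−1.49 ± 0.33) and Krt7 (−1.23 ± 0.25) were lower. TXdXicCast replicate 3, which stood apart above, held Krt7 at 83.7 CPM, against 55.1 and 54.8 CPM in replicates 1 and 2. Krt7 was at 26.8, 26.6 and 28.9 CPM in TXdXicB6. For these list genes no values without TXdXicCast replicate 3 are given. Of 10 pluripotency genes 1 was higher and 2 were lower, and of 7 epiblast genes 2 were higher. Calls were 1 of 12 Wnt genes, 1 of 14 Nodal pathway genes, 1 of 6 definitive endoderm genes, 1 of 3 node genes and 1 of 6 trophoblast genes. No neural, heart or germ cell gene was called. The median log2 fold change was 0.03 for the streak genes and 0.33 for the FGF genes, against 0 for all genes.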

How the data were processed

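The authors aligned reads with STAR 2.5.2b to mm10 (GRCm38) with strain polymorphisms masked. The authors deposited unnormalised counts per gene: bulk reads from featureCounts (total and per allele) and UMIs per capture site (total, spliced and unspliced, with both sequencing runs of day 1 pooled). The strand setting of featureCounts is not given in the sources used here. From 400 capture sites a day, the 1472 retained cells were taken from the study's list of cell IDs and no doublet caller was run. No 2 retained cells held identical counts.

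Counts were tested with edgeR 4.0.16 (quasi-likelihood test, two-sided, filterByExpr by group with a minimum count of 10, TMM factors from autosomal genes, Benjamini-Hochberg adjusted p of 0.05), with 15 TX1072 libraries in 1 fit and 30 deletion line libraries in another. CPM uses the same factors. Tests were run in R 4.3.3 and checked on simulated data, where 92% of genes changed by a log2 fold of 2 and 33% of those changed by 1 were recovered for TX1072 day 4 against day 0, and 93% and 46% for the deletion lines at day 4. False calls made up 6.7% and 7.3% of the calls, above the nominal 5%. The simulation gave all genes the same spread and changed only 100 genes at each size, so these rates may not hold for the data. DESeq2 1.42.0, other factors, other filters, the replicate block, leaving out replicates, and for cells thinning to 40000 UMIs, a threshold of 2 UMIs and all capture sites were alternatives. A 95% interval of a share or a sum covers counting error only.

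Each replicate was differentiated on its own day, so replicate numbers pair samples across days. Deviations from the group means correlated with a median r of 0.126 between TX1072 libraries of the same number and −0.068 between others. For deletion line libraries the median r was 0.185 (same number and line), 0.1 (same number, other line) and −0.078 (other numbers). The main fit has no block.

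The 8 genes, the 12 gene lists and the tests were chosen with earlier results of these data known. Named genes are the 8, the 3 largest increases and decreases past the threshold of each list, the 5 genes most like T (minimum mean count 50), and the 10 leading genes of T-positive cells with at least 20 UMIs. A few genes that this rule names are not reported here. A ratio to cells without any UMI of a gene is a bound against a floor of 3 counts.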

Additional observations from a re-analysis of the deposited data

How the results depend on the processing

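Of 161 log2 fold changes, all kept their direction and their side of the threshold with TMM factors from all genes, with DESeq2 size factors and with a mean CPM of at least 1 as filter, apart from changes of sign between values never called, of which there were 35 in 1827 comparisons over all settings. The DESeq2 Wald test added 1 call and no filter on low counts added 14. The replicate block added 3 calls and lost none: Fgf8 at day 1 (1.94) and from day 1 to day 2 (1.51) in TX1072, and T at day 4 in TXdXicB6 (0.90). Without replicate 1, Gsc at day 4 against day 0 in TX1072 reversed to −0.94, against 0.95 without replicate 2, and the cause was not tested. Without a filter, the number of the 8 genes called was 7 at day 1 against day 0, 4 from day 1 to day 2 and 8 from day 3 to day 4 in TX1072, 8 at day 1 against day 0 in TXdXicCast, 2 between the deletion lines at day 2, 4 at day 4 and 1 for the change from day 1 to day 4, for which DESeq2 also called 1. Without TXdXicCast day 4 replicate 3, chosen after seeing the data, 0 were called between the lines at day 4. Leaving out a replicate gave between 0 and 1 calls between the lines at day 2 and between 0 and 3 at day 4. In all other comparisons the number moved by at most 1.

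The share of cells with any of the 8 genes fell to 34.3%, 37.5%, 15.0%, 34.2% and 75.7% at days 0 to 4 with thinning and to 35.0%, 39.7%, 16.7%, 35.0% and 73.2% with at least 2 UMIs. With all capture sites it was 82.2% at day 4. Cells with 2 or more genes at day 4 made up 49.3% with thinning. Low counts limit Mesp1, Gsc and Nkx1-2 on days 1 to 3, and 3 replicates of 1 clone a line limit the line difference.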
